A study of Homo sapiens with 14 samples.

Results

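MCM2 to MCM7 are the subunits of the replicative helicase, and the sites described here are all RNA sites called on the gene strand inside these 6 genes (GENCODE release 29, GRCh38) in the 14 libraries of the study. They number 23 of 22358 distinct sites in the series: 18 C-to-U sites (of 10609), 4 A-to-I sites and 1 G-to-A site. The genes were picked with the C-to-U calls of the series in view, so those calls and their levels are given as a description, without a test. Total RNA came from 293FT, an established kidney-derived line with SV40 large T antigen, and 3 libraries were of cells given hA3A-BE3, a cytosine base editor that joins a Cas9 nickase to human APOBEC3A. Another 2 libraries (replicates 2 and 3; replicate 1 was not analysed here) were of cells given PE3, a prime editor made of a Cas9 nickase and a reverse transcriptase. Controls were 3 libraries each of cells given Cas9, cells given EGFP and non-transfected cells, 9 in all. The sample titles all bear the name hRNF2, and transfected cells were sorted for the brightest 15% at 40 h after transfection, per the labels. For the non-transfected cells the labels leave the sort and its time unclear. The labels do not say whether replicates were separate cultures, so p-values here reflect library-to-library spread alone, and that spread may be technical. The lists name called sites and not expression levels, so the cell line's identity has no marker check here.

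MCM2, MCM3, MCM4, MCM5, MCM6 and MCM7 form a ring that is loaded onto replication origins before S phase by the origin recognition complex, CDC6 and CDT1. When origins fire, the ring joins CDC45 and the GINS complex and unwinds DNA at the fork. Each subunit holds an ATPase domain with a Walker A motif, a loop that binds ATP. APOBEC3A deaminates cytosine in single-stranded DNA and in RNA, prefers a cytosine after U, and is known to favour cytosines in the loop of a short RNA hairpin.

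Each of the 3 hA3A-BE3 libraries listed 10 of the 18 C-to-U sites, none of which any other library listed; these 10 are the shared sites. The sequences around the 9 shared sites of MCM2, MCM3, MCM5, MCM6 and MCM7 are shown because the common features of the sites can be read from them. They come from the spliced GENCODE 29 transcripts, 10 bases to each side of the edited base, and the capitals mark the U before the edited C and the C itself.
MCM7 R400C: acuggcgccUCgcagccagua
MCM7 R367X: ccagucuccUCgaggcaugaa
MCM6 R387X: gaccucucuUCgaggggacau
MCM6 F97F: ugaaaacauUCgucaaagacc
MCM6 3' UTR: uuuuauucaUCaaaauaaaau
MCM5 S423L: agggacccuUCgucccggaau
MCM5 I343I: cccccuccaUCuuugggggca
MCM3 3' UTR: auugcaucuUCauugcaaaag
MCM2 3' UTR: gcuccucagUCgcaggggugg
In GRCh38 these windows lie at chr7:100097622-100097642 (MCM7 R367X, minus strand), chr2:135862658-135862678 (MCM6 R387X, minus), chr2:135870315-135870335 (MCM6 F97F, minus), chr2:135840456-135840476 (MCM6 3' UTR, minus), chr22:35415883-35415903 (MCM5 S423L, plus), chr22:35412609-35412629 (MCM5 I343I, plus), chr6:52264337-52264357 (MCM3, minus) and chr3:127622278-127622298 (MCM2, plus). The MCM7 R400C window crosses an exon junction, and its edited base is at chromosome 7, position 100097304, minus strand. Protein changes are numbered in the principal transcript of each gene with one-letter amino acid codes, and X is a stop. In MCM7 a longer transcript with a shorter reading frame numbers R400C as R224C and R367X as R191X.

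Every hA3A-BE3 library carried C-to-U sites in all 6 MCM transcripts, and no PE3 or control library carried any. The hA3A-BE3 libraries held 10, 16 and 13 such sites in replicates 1, 2 and 3, a mean of 13 ± 3 (SD, n = 3). Each of the 2 PE3 libraries and each of the 9 control libraries held 0. Over the series, 2.72% of C-to-U sites were called in a PE3 or control library. The lowest values in the lists were 2 mutated reads, an edited fraction of 5.02% and a depth of 3.01 per Gb of mapped bases. They are read here as calling limits, since the filters are not given, so a missing site is not a level of 0. All 10 sites of hA3A-BE3 replicate 1 recurred in the other two libraries, as did 62.5% of the 16 in replicate 2 and 76.9% of the 13 in replicate 3. For the whole C-to-U lists of the 3 libraries these shares were 42.3%, 20.7% and 16.4%. Replicate 2 had the most MCM sites, although replicate 3 had more C-to-U sites over all genes (6446, against 5113 in replicate 2 and 2499 in replicate 1) and more mapped bases (8.87 Gb, against 5.87 and 7.27 Gb). MCM sites were well covered: their median was 219, 182 and 226 reads in replicates 1, 2 and 3, beside 48, 45 and 53 reads for all C-to-U sites of these libraries.

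**Figure D1:**
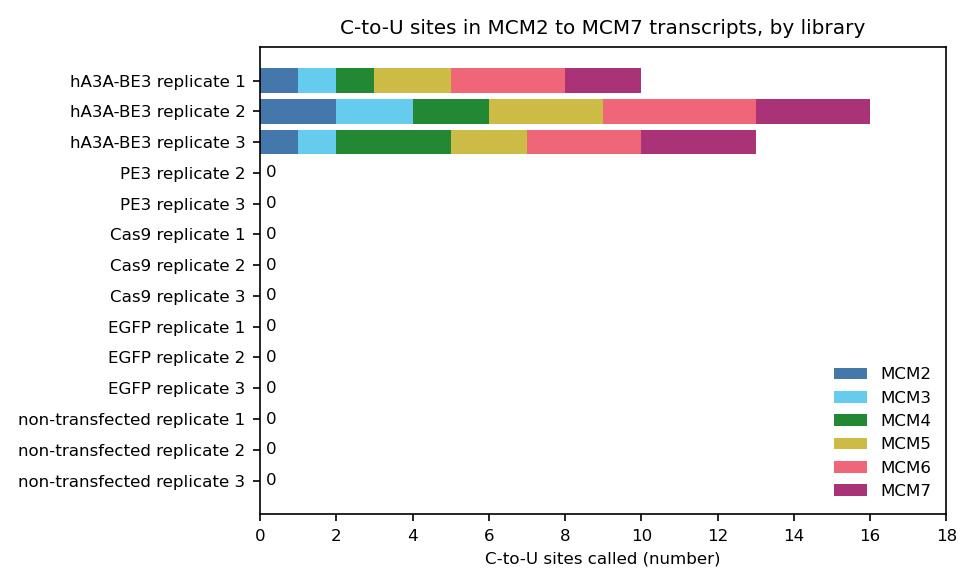
Number of C-to-U sites called in each of the 14 libraries (rows), with the bar split by MCM gene (colours). The hA3A-BE3 libraries hold 10, 16 and 13 sites over all 6 genes, and the PE3, Cas9, EGFP and non-transfected libraries hold 0.

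The genes differed in how many sites they carried. MCM6 and MCM4 had 4 C-to-U sites each, MCM5 and MCM7 3 each, and MCM2 and MCM3 2 each. Shared sites numbered 3 in MCM6, 2 each in MCM5 and MCM7 and 1 each in MCM2, MCM3 and MCM4. So 6 of 6 genes had a shared site, where 15.7% of the 5608 genes with any called site did, and 10 of 18 sites were shared, where 10.2% of the 10353 C-to-U sites of hA3A-BE3 cells were. The genes were chosen on these calls, and nothing is read from either share. In the series, 4 genes had more shared sites than MCM6 and 22 genes, MCM6 among them, had 3.

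MCM7 held the highest level. Its gene is at chr7:100092728-100101940 (minus strand), and R400C lies in exon 10 of 15, 19 codons after the start of Walker A. It was edited in 46 of 237 reads (19.4%) in hA3A-BE3 replicate 1, 49 of 153 (32.0%) in replicate 2 and 70 of 215 (32.6%) in replicate 3, a mean of 28.0% ± 7.44 (SD, n = 3). Replicates 2 and 3 were close together and replicate 1 lay below both, with a Wilson 95% interval of 14.9% to 24.9% against 25.2% to 39.8% and 26.6% to 39.1%. The nearby R367X, in exon 9, turns an arginine codon into a stop 14 codons before Walker A. Its levels were 6.33%, 13.7% and 9.38% of 221, 153 and 224 reads, and the 3 intervals overlapped. R302W, in exon 8, was called in replicates 2 and 3 alone, at 7.58% of 264 and 6.91% of 362 reads.

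MCM6 (chr2:135839626-135876426, minus strand) combined the most even levels with the most shared sites. R387X, a stop codon in exon 8 of 17 that precedes Walker A by 9 codons, stood at 11.9%, 12.9% and 15.0% of 185, 170 and 226 reads in replicates 1, 2 and 3 (13.3% ± 1.61, SD, n = 3). The synonymous F97F in exon 3 stood at 7.83%, 6.67% and 6.74% of 217, 225 and 341 reads (7.08% ± 0.653), the single shared MCM site with its highest value in replicate 1. The third lies in the 3' UTR, 369 bases after the stop codon, at 5.45%, 7.69% and 8.62%. It rested on 55, 39 and 58 reads with 3, 3 and 5 edited reads, so its intervals run from as low as 1.87% to as high as 20.3%. R633W was called in replicate 2, at 5.67% of 194 reads.

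MCM5 (chr22:35400063-35425430, plus strand) had a shared site on each side of Walker A. S423L, in exon 10 of 17 and 42 codons after its start, changes a serine codon and had the widest ratio of highest to lowest level among the shared sites, with 7.28%, 18.4% and 11.1% of 151, 98 and 135 reads. The highest value was 2.52 times the lowest, yet their Wilson intervals, 4.12% to 12.6% and 11.9% to 27.2%, overlapped. I343I, 38 codons before Walker A, was at 5.41%, 5.48% and 8.88% of 185, 146 and 169 reads, the lowest mean of the shared sites at 6.59% ± 1.98 (SD, n = 3). L730L in the last exon was called in replicate 2, from 4 edited reads of 78 (5.13%), just inside the calling limit.

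In MCM4 (chr8:47960185-47978160, plus strand) the single shared site was a stop codon. R395X, at position 47969806 in exon 10 of 16 and 115 codons before Walker A, was at 7.58%, 12.1% and 6.82% of 356, 273 and 440 reads, a mean of 8.83% ± 2.85 (SD, n = 3). Replicate 2 was the highest and the intervals overlapped. The other MCM4 sites were called in 1 library each: I780I in replicate 2 (5.39% of 297 reads), R766W (6.07% of 346) and a 3' UTR site (5.73% of 157), both in replicate 3.

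MCM3 and MCM2 carried C-to-U sites outside the coding sequence only. The MCM3 site (chr6:52264009-52284881, minus strand) lies in the 3' UTR, 241 bases after the stop codon, and had the second highest level. Its values were 13.6%, 28.5% and 20.3% of 235, 221 and 310 reads (20.8% ± 7.46, SD, n = 3), and the intervals of replicates 1 and 2 were apart, at 9.81% to 18.6% and 23.0% to 34.8%. An intronic MCM3 site was called in replicate 2 from 2 of 16 reads, the thinnest call of the family. In MCM2 (chr3:127598223-127622436, plus strand) the shared 3' UTR site, 515 bases after the stop codon, was at 5.32%, 11.6% and 6.77% of 395, 293 and 384 reads (7.90% ± 3.29, SD, n = 3), again with the intervals of replicates 1 and 2 apart. A further MCM2 site, 564 bases after the stop codon, was called in replicate 2, at 5.15% of 233 reads.

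**Figure D2:**
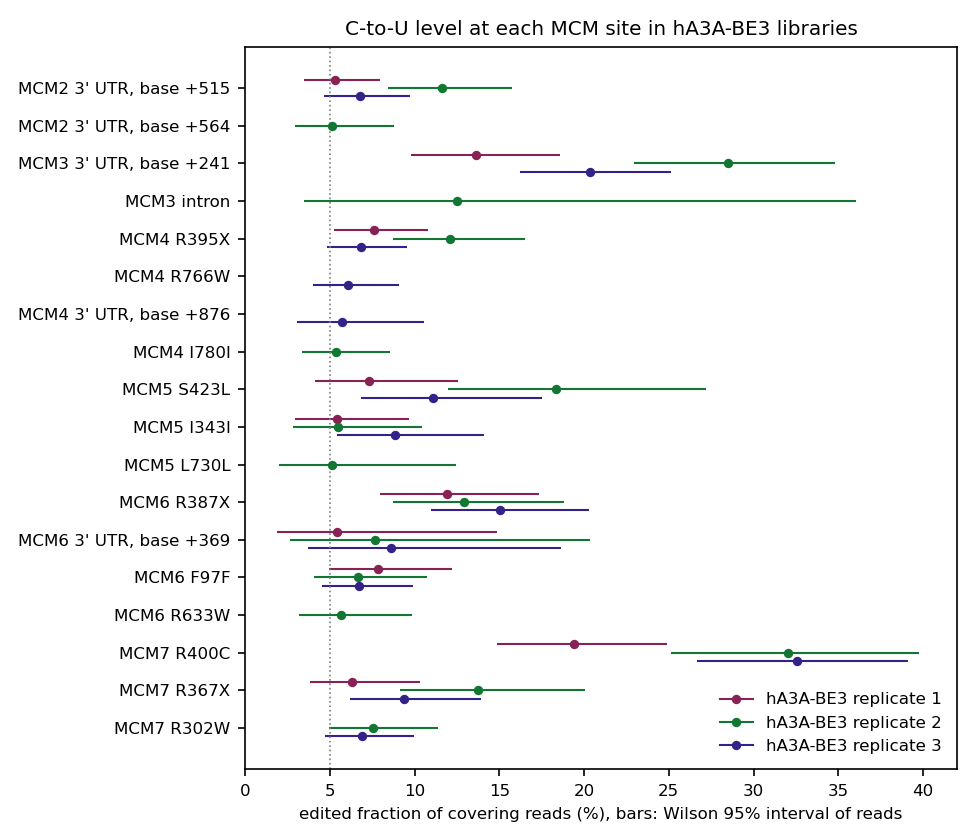
Edited fraction of covering reads in percent (x axis) at each of the 18 C-to-U sites (rows) in the 3 hA3A-BE3 libraries (colours), with Wilson 95% intervals of the reads; the dotted line is at 5%, near the calling limit, and base numbers count from the end of the stop codon. MCM7 R400C (19.4% to 32.6%) and the MCM3 3' UTR site (13.6% to 28.5%) have the highest means, and the sites called in 1 library sit near the limit apart from the thinly covered MCM3 intron.

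Across the 10 shared sites the mean levels ran from 6.59% (MCM5 I343I) to 28.0% (MCM7 R400C), with a median of 9.32%, beside 13.9% for the 1057 shared sites of the series. Of the 10, 6 lay under 10% (24.4% of the series' shared sites did) and 2 at 20% or more (27.4%). The shared MCM sites had medians of 219, 161.5 and 225 covering reads in replicates 1, 2 and 3, beside 63, 52 and 77 for the series' shared sites, and the part of coverage in this difference was not tested. In order of level, MCM7 R400C and the MCM3 3' UTR site were followed by MCM6 R387X, MCM5 S423L, MCM7 R367X and MCM4 R395X, then by the MCM2 3' UTR site, the MCM6 3' UTR site, MCM6 F97F and MCM5 I343I. Neighbours in this order differed by less than the larger of their SDs, apart from the MCM3 site and MCM6 R387X, whose means (20.8% and 13.3%) lay just farther apart than the SD of 7.46 at the MCM3 site. Replicate 1 had the lowest value at 8 of the 10 sites, and at 65.3% of the series' shared sites. Replicate 2 was highest at 5, replicate 3 at 4 and replicate 1 at 1, beside 45.0%, 43.3% and 11.6% of the series' shared sites. Median levels over the 10 sites were 7.43%, 12.5% and 9.13% in replicates 1, 2 and 3, and 10.7%, 15.5% and 15.0% over the series' shared sites. The intervals of the highest and lowest library were apart at 3 of the 10 sites, MCM7 R400C and the 3' UTR sites of MCM3 and MCM2. At the remaining 7 these intervals, which cover counting error only, overlapped.

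Coding sequence held 12 of the 18 C-to-U sites, 3' UTRs 5, introns 1 and 5' UTRs 0. Stops arose at 3 coding sites, an amino acid was replaced at 5, and 4 left the protein the same. Arginine codons made up 7 of the 12, each edited at its first base with a G next. These 7 are thus among the sites followed by G that are counted below, and their share over the series is not given here. Among the 7 shared coding sites, 3 made stops (R395X in MCM4, R387X in MCM6 and R367X in MCM7), 2 changed an amino acid and 2 were synonymous. Of the series' 723 shared coding sites with a reading frame, 10.9% made stops and 58.1% were synonymous. Each stop replaced a CGA codon after a U, and the 6 coding sequences hold 55 positions where a C after U could give a stop, from 2 in MCM5 to 15 in MCM6. All 3 stops lie between 45.7% and 50.9% of the way along the protein and before the codons of Walker A. They also lie 1317, 1191 and 860 bases upstream of the last exon junction in MCM4, MCM6 and MCM7. A stop that far upstream of a junction is a known trigger of nonsense-mediated decay, and whether these transcripts were decayed cannot be read from lists of sites.

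**Figure D3:**
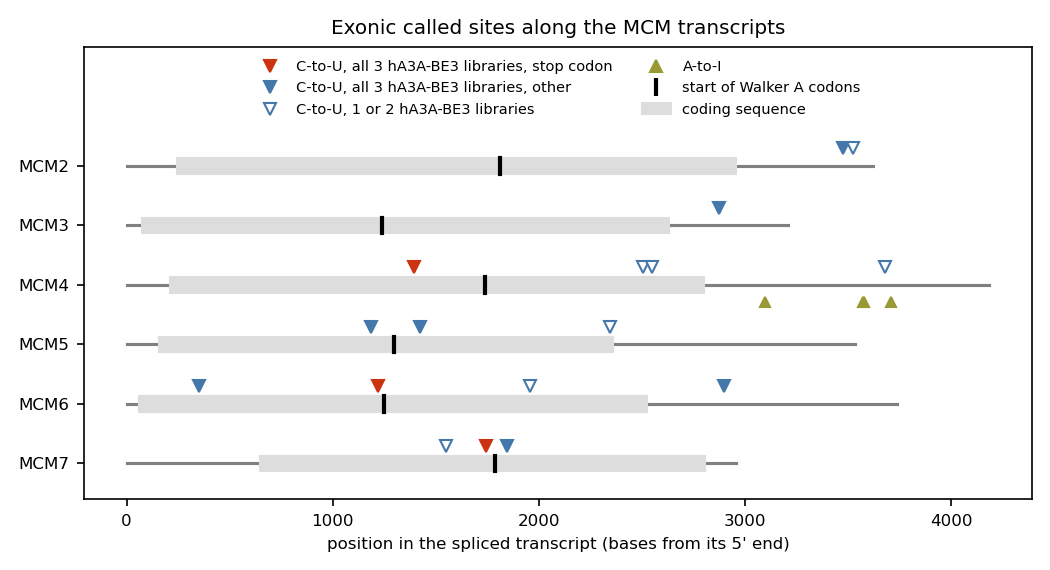
Spliced transcripts of the 6 genes to scale (x axis, bases from the 5' end), with coding sequence as boxes, the start of the Walker A codons as a black bar, C-to-U sites above and A-to-I sites below. The 3 stop-making shared sites (red) fall before Walker A in MCM4, MCM6 and MCM7, while MCM2 and MCM3 have exonic sites in their 3' UTRs alone.

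All 17 exonic C-to-U sites followed a U. In the 6 transcripts, 1248 of 5310 cytosines (23.5%) follow a U, and 17 of these 1248 (1.36%) were called, from 1 of 199 in MCM3 to 4 of 215 in MCM6. The next base was G at 12 of the 17 sites. The sequence UCG, counted on the transcript strand with no overlap possible, occurs 161 times in the 6 transcripts, and 12 of those cytosines (7.45%) were called, against 5 of the 1087 UpC cytosines followed by another base (0.46%). UCG was called in 3 of 24 places in MCM7, 3 of 21 in MCM6, 4 of 31 in MCM4, 1 of 34 in MCM5, 1 of 31 in MCM2 and 0 of 20 in MCM3. Over the series 48.8% of shared exonic sites had G at this place, and 7 of the 10 MCM ones did. At the base before the U, the 17 sites had A in 7, U in 5, C in 4 and G in 1. A stood there at 3 of the 10 shared MCM sites and at 59.5% of the series' shared exonic sites.

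Most shared sites lay in predicted hairpin loops. In the minimum free energy fold of 41-base windows, the cytosine was in a hairpin loop at 8 of 10 shared sites and at 9 of all 17 exonic sites, against 489 of the 1221 UpC cytosines of the same transcripts that were not called (40.0%). For the series' 1034 shared UpC sites the share was 79.3%. The predicted loop at MCM5 S423L had 5 bases, the edited C last, on 5 base pairs. MCM7 R400C had a loop of 8 on 6 pairs, the MCM3 site a loop of 7 on 5 pairs, MCM5 I343I a loop of 9 on 6 pairs and the MCM6 3' UTR site a loop of 6 on 6 pairs. MCM6 F97F had a loop of 9 on 4 pairs and MCM4 R395X a loop of 4 on 2 pairs. The MCM2 site was the last base of a loop of 4 on 1 base pair. MCM6 R387X and MCM7 R367X were paired in this fold. In windows of 31 bases 10 of 10 shared sites were in a loop (46.8% of UpC not called), and in windows of 61 bases 6 of 10 (26.3%). MCM7 R400C, MCM4 R395X, MCM6 R387X and the MCM2 site were paired in the windows of 61 bases. Such folds are of bare sequence, and RNA structure was not measured.

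**Figure D4:**
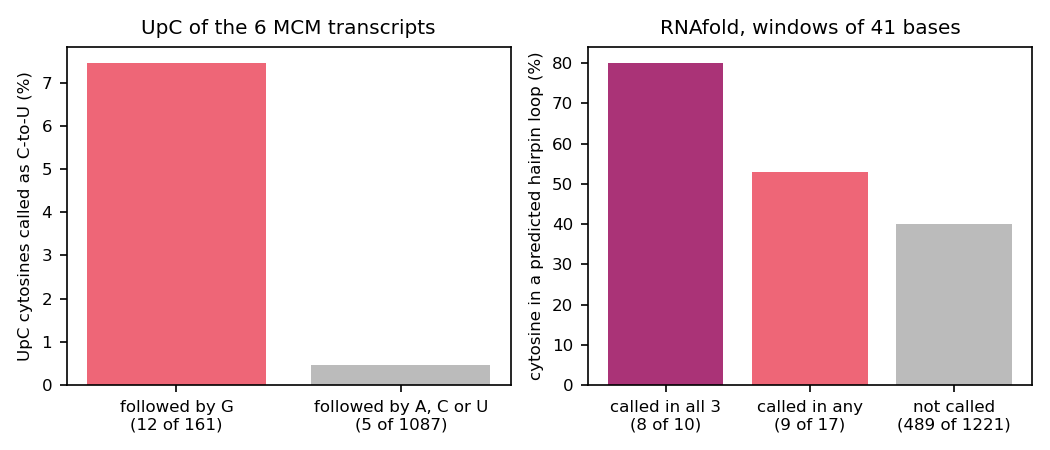
Left, percent of UpC cytosines in the 6 MCM transcripts called as C-to-U, by the next base (12 of 161 before G, 5 of 1087 before another base). Right, percent of UpC cytosines in a predicted hairpin loop in 41-base windows, for those called in all 3 hA3A-BE3 libraries (8 of 10), called in any (9 of 17) and not called (489 of 1221).

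Sites of other kinds in the MCM genes were few in every group. They numbered 2 in each hA3A-BE3 library, 4 and 2 in the PE3 libraries and 1 to 3 in the controls. Their number in hA3A-BE3 libraries differed from the control mean of 2.22 ± 0.667 (SD, n = 9) by -0.22 (two-sided exact permutation p = 1, Benjamini-Hochberg adjusted p = 1 over 6 tests). All 4 A-to-I sites lay in the 3' UTR of MCM4, 295 to 909 bases after the stop codon, and A-to-I changes are the mark of the cell's own ADAR enzymes. The G-to-A site, in an MCM3 intron, was called in Cas9 replicate 3 alone. Of the less edited A-to-I sites, the one at position 47977687 was called in PE3 replicate 2 (5.77% of 52 reads), EGFP replicate 1 (5.22% of 115) and non-transfected replicate 2 (5.04% of 139), and the one at position 47977554 in PE3 replicate 2 alone.

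The A-to-I site at chromosome 8, position 47977549, was called in all 14 libraries. Its level is not among the C-to-U values on which the genes were picked, but its tests were added after the sites were seen. It was edited in 13.7%, 19.1% and 20.8% of reads in hA3A-BE3 replicates 1, 2 and 3, in 22.7% and 16.3% in PE3 replicates 2 and 3, and in 12.5% to 20.2% in controls (15.0% ± 2.51, SD, n = 9). The groups overlapped. The difference from controls was 2.83 percentage points for hA3A-BE3 (two-sided exact permutation p = 0.173, adjusted p = 0.518, 95% interval -1.08 to 6.90) and 4.50 for PE3 (exact permutation p = 0.0727, adjusted p = 0.436, 95% interval -0.71 to 10.1). PE3 replicate 2 rests on 66 reads; the PE3 difference is 1.30 without it and 7.70 without replicate 3. The hA3A-BE3 difference is 4.92 without replicate 1 and 1.34 without replicate 3. At the other widely called site, position 47977073, levels were 5.73%, 5.43% and 8.50% in hA3A-BE3 and 6.25% and 10.4% in PE3, against 7.03% to 11.5% in the 8 control libraries that list it. There the hA3A-BE3 difference turned direction, to -1.65 percentage points (exact permutation p = 0.170), and the PE3 difference was 0.127 (exact permutation p = 0.956).

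A C-to-U call needs reads over its site, so the choice of genes was not free of coverage in hA3A-BE3 libraries. The p-values below for hA3A-BE3 reads carry that limit. Reads over the A-to-I site at position 47977549 were also compared, as a count at a single 3' UTR base and not a level of the whole MCM4 transcript. They were 31.2, 33.0 and 30.3 per Gb of mapped bases in hA3A-BE3 cells and 20.3 and 25.8 in PE3 cells, against 28.1, 11.8 and 27.5 in Cas9, 27.7, 21.9 and 27.8 in EGFP and 37.4, 34.2 and 34.7 in non-transfected cells. Non-transfected libraries were the highest and hA3A-BE3 came next, with the low Cas9 value in replicate 2 (64 reads). Against all 9 controls (27.9 ± 7.68, SD) the difference was 3.64 for hA3A-BE3 (two-sided exact permutation p = 0.477, adjusted p = 0.716, 95% interval -6.87 to 14.2) and -4.87 for PE3 (exact permutation p = 0.436, adjusted p = 0.716, 95% interval -17.7 to 8.47). Without Cas9 replicate 2 the hA3A-BE3 difference is 1.63, and the PE3 difference is -2.10 without PE3 replicate 2 and -7.63 without PE3 replicate 3. All 3 hA3A-BE3 values lay above all 6 Cas9 and EGFP values and below all 3 non-transfected ones. That order failed at position 47977073, where hA3A-BE3 replicate 3 (17.3) lay below EGFP replicate 1 (18.8). In deposited depth per Gb at the main site, hA3A-BE3 replicate 2 (47.0) lay above non-transfected replicate 2 (46.3). The differences in that depth were 6.59 for hA3A-BE3 (exact permutation p = 0.259) and -5.81 for PE3 (exact permutation p = 0.382). With the non-transfected libraries left out of the controls, the difference in covering reads per Gb was 7.41 for hA3A-BE3 (exact permutation p = 0.0833, adjusted p = 0.500) and -1.09 for PE3 (exact permutation p = 0.821, adjusted p = 1). Reads per Gb at position 47977073, which Cas9 replicate 2 does not list, differed from the controls by 0.843 for hA3A-BE3 (exact permutation p = 0.739, adjusted p = 1) and by -8.20 for PE3 (exact permutation p = 0.0222, adjusted p = 0.133). In these bulk samples, fewer cells making the RNA and less RNA per cell cannot be told apart.

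**Figure D5:**
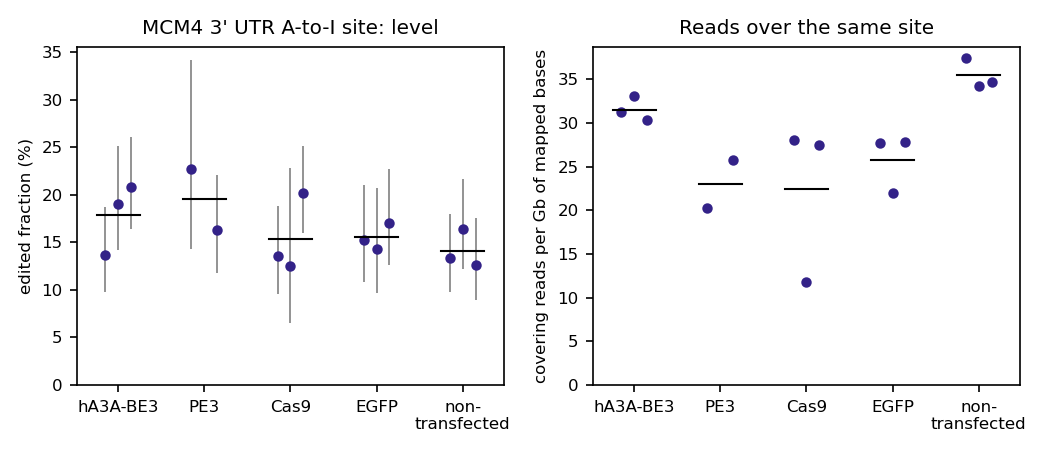
Left, A-to-I level in percent (points, with Wilson 95% intervals of the reads) at the MCM4 3' UTR site called in all 14 libraries, by group; right, covering reads per Gb of mapped bases at the same site; lines are group means. Levels overlap between groups (hA3A-BE3 13.7% to 20.8%, controls 12.5% to 20.2%), and reads per Gb are highest in non-transfected cells (34.2 to 37.4).

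Shared sites were also found in other genes that license origins or work at the fork. Of 56 listed genes 38 had any called site. A C-to-U site in hA3A-BE3 cells was found in 34 (83.3% of all genes with a called site had one). A shared site was found in 7, which is 18.4% of the 38, near the 15.7% of all genes with a called site. RFC2, a clamp loader subunit, and POLA1, the catalytic subunit of DNA polymerase alpha, had 3 shared sites each, all synonymous, and POLA1 was led by V1225V at 27.4% ± 8.97 (SD, n = 3). SSRP1, a subunit of the histone chaperone FACT, had R94C and I199I, with I199I at 21.5% ± 6.29. Of the genes that load the MCM ring, CDT1 and CDC6 were among the 7, and ORC1 to ORC6, the genes of the origin recognition complex, were not. ORC1 had 6 C-to-U sites in hA3A-BE3 cells, none of them shared. CDT1 carried the synonymous I203I at 18.6% ± 3.76 and CDC6 the stop Q460X at 14.6% ± 7.87. RFC1, the large clamp loader subunit, and RPA1, which coats single-stranded DNA, had a 3' UTR site each, at 19.0% ± 7.68 and 14.2% ± 5.13 (SD, n = 3 for each). MCM9, a paralogue of the ring's subunits, had 2 C-to-U sites in hA3A-BE3 cells, neither of them shared, and its partner MCM8 had no called site. MCM10, a replication factor outside the helicase family, had 2, neither of them shared. The listed genes had 9 C-to-U calls in PE3 or control libraries, 8 in MTBP and 1 in RFC5, which are named after their values were seen.

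MCM6 had 3, 4 and 3 C-to-U sites in hA3A-BE3 replicates 1, 2 and 3 and 0 elsewhere. The genes nearest to this pattern, by Euclidean distance of log2(sites + 1) over the 14 libraries, were 13 at a distance of 0.32. The mean level of MCM6 over all its C-to-U calls, shared or not, was 8.86%. The 3 of these 13 genes closest to that level were PRKAR2A, AEN and RPL37. PRKAR2A, a regulatory subunit of protein kinase A, had 3, 3 and 3 sites (8.48%). The exonuclease gene AEN had 3, 4 and 4 sites (9.26%) and RPL37, a ribosomal protein gene, 3, 3 and 3 sites (8.19%).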

How the data were processed

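The authors deposited 1 list of called RNA sites per library, without a header. Per the submitters' processing notes, BWA 0.7.17 was used, and the build was GRCh38 (also written hg38). Site caller, filters and strand rule: not given in the sources used here. Deposited counts are of covering, mutated and per-base reads, whole numbers in each list. The deposited fraction columns give the edited share and the share of each base. A deposited signal column equals a depth divided by a constant per library, read here as Gb of mapped bases, an inference from the values (3.26 to 10.6 Gb). Strands were recovered from the base columns, and every exonic site had the reference base of its GENCODE 29 transcript. Sites took the principal MCM transcript, C-to-T calls are termed C-to-U, and A-to-G calls A-to-I. Tests were two-sided exact permutation tests over libraries, adjusted by the Benjamini-Hochberg method over 6 tests, at 0.05, after a check on simulated data. The 6 include PE3 C-to-U sites against controls, void since every library had 0. Windows were folded with RNAfold 2.7.2. Intervals of the level at a site in 1 library are Wilson 95% intervals and cover counting error only, since reads carry no molecular identifiers. The 95% intervals of differences between groups are taken over libraries and are not Wilson intervals. The members, lists and tests were chosen with earlier results of these data known, and the MCM4 A-to-I tests, the controls without non-transfected libraries and the folding were added after the sites were seen. Named sites were those called in all 3 hA3A-BE3 libraries, those changing a protein in at least 2, the highest in each gene and, from the list, genes with a shared site. Sites called in a single library were named beyond that rule. MCM4 sequence is not shown here. Alternatives were limits of 20 and 50 covering reads, 10% edited and 5 mutated reads, sites of non-transfected cells left out, either strand, other scales, a replicate block and each library left out.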

Additional observations from a re-analysis of the deposited data

Results flagged for a closer look

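Of 4 measures examined over the control libraries, 2 held a library flagged by Dixon's criterion. Chance meets it in about 1 in 20 groups of continuous normal values. That rate does not carry over to small tied counts, on which the flag of Cas9 replicate 2 rests. Cas9 replicate 2 had 1 MCM site other than C-to-U, where the other 8 controls had 2 or 3, and at 64 reads it also had the lowest coverage of the MCM4 A-to-I site. Non-transfected replicate 2 had a level of 11.5% at the less edited MCM4 A-to-I site (position 47977073), above the 7.03% to 8.47% of the other control libraries that list it, from 17 of 148 reads.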

How the results depend on the processing

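With an edited fraction of at least 10%, hA3A-BE3 libraries held a mean of 5 MCM C-to-U sites, 3 shared sites remained and their mean level was 20.7% in place of 12.2%, because low sites drop out. Per Gb of mapped bases the mean number was 1.86. At the other MCM4 site the hA3A-BE3 difference in A-to-I level was -1.65 percentage points and the PE3 difference in reads per Gb was -8.20 in place of -4.87, and the cause was not tested. Without the non-transfected controls, an alternative chosen after seeing the data, the differences in reads per Gb were 7.41 for hA3A-BE3 and -1.09 for PE3. With each hA3A-BE3 library left out, the mean number of sites ran from 11.5 to 14.5. Sites called in all hA3A-BE3 libraries that remained ran from 10 to 11 and their mean level from 10.8% to 13.2%. That looser rule cannot give fewer than 10 sites, so nothing is read from their number. With any library left out, the hA3A-BE3 A-to-I difference at the main MCM4 site ran from 1.34 to 4.92 and that of PE3 from 1.30 to 7.70. Same-numbered libraries did not deviate together (26 pairs, r from -0.17 to 0.16). Under a replicate block the differences were -0.22 for other sites, 0 for PE3 C-to-U sites, 2.83 and 4.02 for the A-to-I level and 3.64 and -3.28 for reads per Gb in hA3A-BE3 and PE3, and no adjusted p passed 0.05. The block leaves too few assignments for any PE3 p to reach 0.05. A lone hA3A-BE3 difference could not pass it after adjustment either, so nothing is read from this. Over the alternatives, exact permutation p-values went down to 0.0364 for the A-to-I level in hA3A-BE3 (adjusted p = 0.200 at the lowest) and 0.0222 for reads per Gb in PE3 (adjusted p = 0.133). The 0.0222 is from position 47977073, which Cas9 replicate 2 does not list. Both PE3 values there (9.82 and 12.6 per Gb) lay below every listed control, so no smaller p was possible. With 2 PE3 libraries against 9 controls the smallest p is 0.0182, so a lone PE3 difference could not pass after adjustment over 6 tests. At 20 or 50 covering reads, 5 mutated reads or either strand the shared sites numbered 9 to 10, and every exonic site kept its preceding U. Of the listed licensing and fork genes, 7 had a shared site, against 6 at 20 covering reads and 5 at 10% edited. The MCM6 3' UTR site rests on the fewest reads of the shared sites, 39 to 58.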
